A study of Mus musculus with 2 samples.

Results

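The intermediate filament genes of neural cells were followed in a mouse glioblastoma stem cell line after knockdown of Gli2. They are 10 genes, Nes, Vim, Gfap, Nefl, Nefm, Nefh, Ina, Prph, Sync and Synm, and all of their 17 probes on the array were taken, out of 23784 named genes and 34560 named probes. A probe was assigned to a gene through its RefSeq accession. The family was selected on the differences between these same arrays, which had been seen before, so its values are given as a description. The tested cells carried a lentiviral shRNA against Gli2, and the control cells of the same line carried a lentiviral non-target shRNA, so that both groups had been transduced. The line had been established by the neurosphere method from Sleeping Beauty transposon-induced murine glioblastomas, and both groups grew without serum in Neurobasal medium that held B27, N2 and the growth factors EGF and bFGF (10 ng/ml). 1 array was hybridised for each group, so the comparison has no replicates and no test, and a size rule of 2-fold takes the place of one. How many tumours and how many shRNA sequences stand behind the line and the knockdown is not given in the sources used here.

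Intermediate filaments are ropes of coiled-coil proteins that give a cell its tensile strength, and cells of the nervous system exchange one filament protein for another as they mature. Neural progenitors build filaments of vimentin and nestin, astrocytes add GFAP, and neurons assemble the neurofilament triplet of light, medium and heavy chains with alpha-internexin or peripherin. Gli2 is a zinc finger transcription factor that carries Hedgehog signals to target genes, and nestin and vimentin are widely used to mark glioma cells with progenitor features.

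Gli2 itself was lower in the knockdown. Its probe (NM_001081125, chromosome 1) gave a processed signal of 57.9 on the Gli2 shRNA array, against 98.1 on the control array, a scaled log2 difference of -1.04 ± 0.22. Values were scaled to the 75th percentile of each array, and differences are Gli2 shRNA minus control. The error after ± combines the errors that the scanner software assigns to the spots of both arrays, and it falls with the number of spots averaged. For bright probes the assigned error is the same share of the signal, 1944 of 19441 for Nes and 9744 of 97436 for Vim on the Gli2 shRNA array. There it is not a measured spread, and nowhere does it cover the cultures. Of the 6 progenitor markers Nes, Sox2, Pax6, Fabp7, Msi1 and Prom1, 5 were well above background on both arrays and Prom1 on the Gli2 shRNA array only. Most markers of neurons, astrocytes and the oligodendrocyte lineage were measured on both arrays too (9 of 10, 6 of 8 and 6 of 8), so being measured does not single out progenitors, and Nes is itself a member. Across named genes, 14563 were measured on both arrays, meaning that the software marked the spot as well above background on each. Of these, 268 (1.84%) were 2-fold or more higher and 260 (1.79%) 2-fold or more lower in the Gli2 shRNA array, or 3.63% in all. The higher ones made up 50.8% of these genes, but 68.6% when arrays were scaled to their medians, which moved the median difference of all genes to 0.14. Since RNA of whole cultures was measured, fewer cells that make a transcript and less transcript per cell cannot be told apart.

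Ina and Nefh, both neuronal filament genes, were the members past 2-fold, and both were higher in the Gli2 shRNA array. They are 2 of the 8 members measured on both arrays, beside 1.84% of all genes measured so. The members had been chosen with such values known, so nothing is read from that share. The remaining 6 members lay within 2-fold, and none of the 8 was 2-fold or more lower. Gfap was measured on 1 array or the other depending on the probe, and Sync on neither. Of the 8 members, 6 lay above 0 and 2 below, where 50.3% of all genes measured on both arrays lay above 0. The median over the 9 members measured on at least 1 array was 0.15, beside -0.0089 over all such genes, and it was -0.055 after normexp background correction, so the set as a whole has no settled direction.

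**Figure D1:**
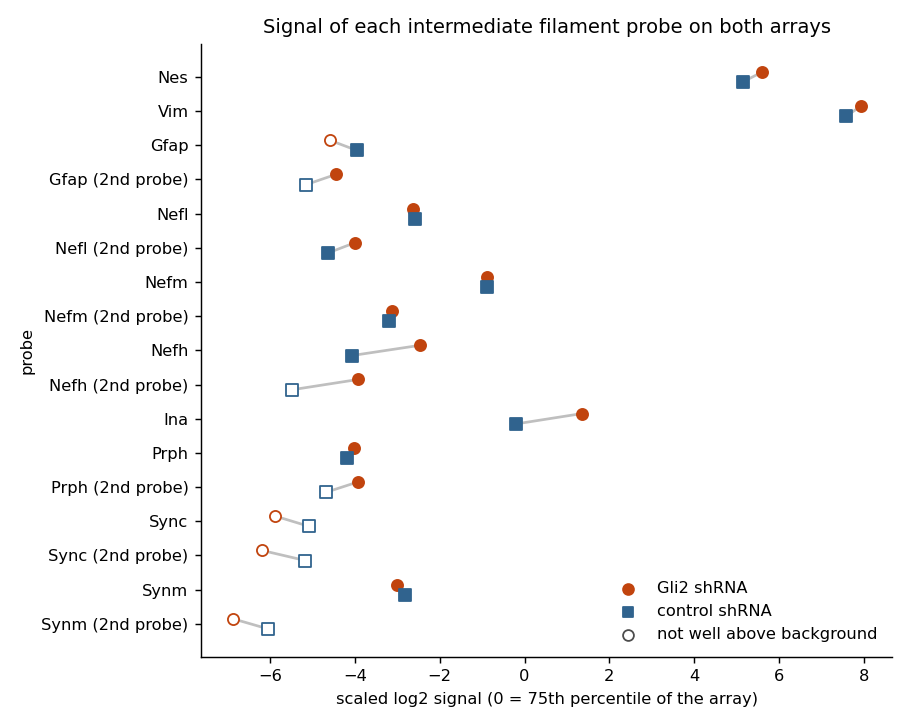
Scaled log2 signal (horizontal axis, 0 at the array's 75th percentile) of each of the 17 probes, with circles for the Gli2 shRNA array and squares for the control array; open symbols were not well above background. Ina and both Nefh probes show the wide gaps, with the Gli2 shRNA array at 1.34 for Ina against -0.19 for the control; signals of different probes are not comparable as transcript levels.

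The sequence upstream of the start is shown for Ina, Nes and Vim, the members that lay above 0 on a single bright probe, to set their promoters side by side. Each is the 250 bases before the annotated transcription start in RefSeq's table for GRCm38.p6, 5′ to 3′ on the gene's strand, which is the plus strand for all 3: chr19:47014431-47014680 for Ina, chr3:87970843-87971092 for Nes and chr2:13574061-13574310 for Vim. Capitals mark matches, on either strand, to the GC box GGGCGG, the TATA box TATAAA and the CCAAT box CCAAT.
Ina: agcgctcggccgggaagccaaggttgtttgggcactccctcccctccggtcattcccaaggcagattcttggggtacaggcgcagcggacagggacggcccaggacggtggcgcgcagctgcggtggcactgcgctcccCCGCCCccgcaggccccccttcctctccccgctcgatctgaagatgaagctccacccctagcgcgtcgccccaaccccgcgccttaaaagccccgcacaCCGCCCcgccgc
Nes: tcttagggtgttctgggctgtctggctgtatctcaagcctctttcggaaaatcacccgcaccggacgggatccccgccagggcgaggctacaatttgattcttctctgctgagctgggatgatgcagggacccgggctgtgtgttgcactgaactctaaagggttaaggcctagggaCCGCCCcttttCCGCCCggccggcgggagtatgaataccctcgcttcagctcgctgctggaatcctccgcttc
Vim: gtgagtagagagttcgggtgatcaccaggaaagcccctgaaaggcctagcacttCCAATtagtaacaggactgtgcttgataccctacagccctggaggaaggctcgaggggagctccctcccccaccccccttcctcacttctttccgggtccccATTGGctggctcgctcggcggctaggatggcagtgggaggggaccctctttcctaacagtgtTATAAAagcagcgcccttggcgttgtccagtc
The Ina window was 70.8% G and C, with 2 GC boxes on the opposite strand that begin at positions -111 and -12 from the start. The Nes window was 58.8% G and C and also held 2 opposite-strand GC boxes, at -73 and -62. The Vim window, at 58.4% G and C, held instead a TATA box at -32 and CCAAT boxes at -196 and -94. Among the 7 members with an entry in the table, the GC box was present in 4 (Nes, Sync, Prph and Ina), the TATA box in 2 (Vim and Prph) and the CCAAT box in 2 (Vim and Synm). Over all 32851 windows of this length, 32.7% held the GC box, 12.4% the TATA box and 33.8% the CCAAT box. The Gli consensus GACCACCCA, searched on both strands, was in none of the 7 windows and in 0.225% of all, which says only that these letters are not in these 250 bases.

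Ina encodes alpha-internexin, a filament protein that young neurons make before the neurofilament triplet. Its probe (NM_146100, chromosome 19) had a signal of 1013 on the Gli2 shRNA array and 288 on the control array. Both spots stood far above their surroundings, with raw spot medians of 1137 over a local background of 39 on the Gli2 shRNA array and of 349 over 45 on the control array. The scaled difference was 1.54 ± 0.20 on the log2 scale, or 2.90-fold higher in the Gli2 shRNA array. To see how usual this was at its brightness, the 14563 genes were divided into 4 equal groups by mean level. Ina fell in the second group from the dim end, where 14 of 3641 genes (0.385%) had a difference as high or higher. The SD of the difference over that group was 0.43.

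Nefh encodes the heavy neurofilament chain, whose long phosphorylated tail spaces filaments in large axons. Its brighter probe (NM_010904, chromosome 11) had a signal of 72.7 on the Gli2 shRNA array and 19.7 on the control array, a scaled difference of 1.61 ± 0.29 or 3.04-fold. The dimmer probe had 26.4 on the Gli2 shRNA array and 7.43 on the control array, where it was not well above background. That probe was therefore at least 1.70-fold higher, and its measured difference, 1.55 ± 0.61, lay close to that of the brighter probe. Both probes put Nefh higher, but the control signals were near the lowest signal that the software marked as well above background, 12.8 on that array. In the raw scan, the brighter probe's spot median was 113 over a background of 33 on the Gli2 shRNA array and 56 over 42 on the control array. Normexp correction, which here added an offset of 50 to both arrays, brought the Nefh difference to 0.55, within 2-fold, whereas Ina stayed at 1.40. In the dimmest of the 4 brightness groups, to which Nefh belongs, 4.5% of genes were 2-fold or more higher and 0.879% were as high as Nefh or higher.

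**Figure D2:**
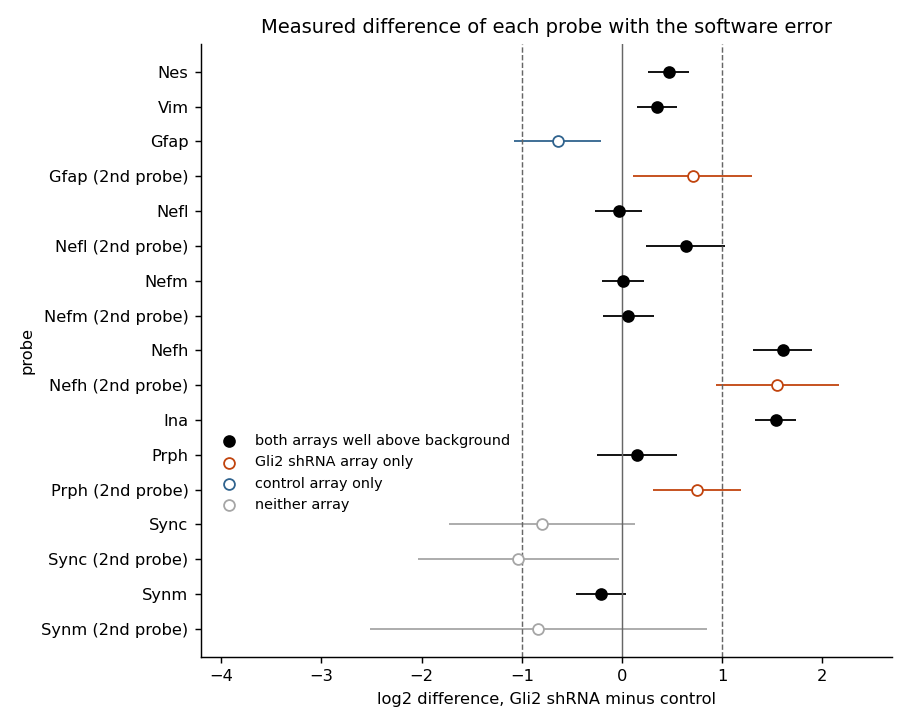
Measured log2 difference (Gli2 shRNA minus control, horizontal axis) of each probe, with bars for the software error; dashed lines mark 2-fold, and open symbols mark probes not well above background on 1 or both arrays. Ina and both Nefh probes lie between 1.54 and 1.61, beyond the 2-fold line, while the brighter Nefl, Nefm and Prph probes lie near 0 and the Gfap probes fall on opposite sides of 0.

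The other chains of the triplet did not follow Nefh in size. Nefl, the light chain on which neurofilaments are built, had a signal of 64.5 on the Gli2 shRNA array and 54.5 on the control array on its brighter probe (NM_010910, chromosome 14), a scaled difference of -0.034 ± 0.24. Its dimmer probe had 24.9 on the Gli2 shRNA array and 13.3 on the control array, a difference of 0.63 ± 0.39. The probes of Nefl differed from each other by 0.67 ± 0.46, and the dimmer one, at -0.051 after normexp, lost its difference with the background correction. Across all genes with several probes measured on both arrays, 30.5% had probes on opposite sides of 0. Nefm, the medium chain, lies next to Nefl on the chromosome. On its brighter probe (NM_008691) it had a signal of 218 on the Gli2 shRNA array and 179 on the control array, a difference of 0.0084 ± 0.21. The dimmer Nefm probe had 45.8 on the Gli2 shRNA array and 36.1 on the control array, a difference of 0.064 ± 0.26, so that both Nefm probes lay within their errors of 0. The Nefl and Nefm signs are not settled, since each flips with the scaling or the background correction.

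Prph encodes peripherin, the filament protein of peripheral and some brainstem neurons. Its representative probe (NM_013639, chromosome 15) had a signal of 24.5 on the Gli2 shRNA array and 18.2 on the control array, a difference of 0.15 ± 0.40. The second Prph probe had 26.2 on the Gli2 shRNA array and 12.9 on the control array, where it was not well above background. Its difference was 0.75 ± 0.44, or 1.68-fold higher. Within its error the representative probe did not depart from 0, and its difference was -0.15 after normexp, so Prph has no settled direction.

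The progenitor filament genes Nes and Vim were both slightly higher and had strong signals. The 6 progenitor markers, Nes among them, did not share this direction: 2 lay above 0 and 4 below, with a median of -0.060. Those below were Sox2, Pax6, Fabp7 and Msi1. The lowest, Fabp7, was at -0.14 ± 0.20, and these 4 lay within their errors of 0. Nes, which encodes the nestin that progenitors polymerise with vimentin, had a signal of 19441 on the Gli2 shRNA array and 11613 on the control array (NM_016701, chromosome 3). The scaled difference was 0.47 ± 0.20, or 1.38-fold. Vim, the vimentin gene (NM_011701, chromosome 2), had 97436 on the Gli2 shRNA array and 63115 on the control array, a difference of 0.35 ± 0.20 or 1.27-fold. Both belong to the brightest of the 4 groups, where the SD of the difference over genes was 0.26. There 2.44% of genes were as high as Nes or higher and 5.49% as high as Vim or higher. Neither reached 2-fold under any of the 9 other settings, which gave 0.46 to 0.60 for Nes and 0.35 to 0.48 for Vim. Each has 1 bright probe, so the mean of probes and the filters could not change these values.

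Synm encodes synemin, a large filament protein that cannot form filaments alone and links vimentin or desmin to adhesion sites. The probe for NM_201639 (chromosome 7) had a signal of 49.3 on the Gli2 shRNA array and 47.0 on the control array, a difference of -0.21 ± 0.25. The probe for NM_183312, another Synm transcript, was not well above background on either array, at 3.39 on the Gli2 shRNA array and 4.99 on the control array. Sync, the syncoilin gene (NM_023485, chromosome 4), whose protein is best known from muscle, was likewise not well above background on either probe. Its signals were 6.81 and 5.44 on the Gli2 shRNA array and 9.75 and 9.19 on the control array, and no fold is given.

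Gfap, the astrocyte filament gene on chromosome 11, was near background throughout. The probe for NM_010277 had 16.5 on the Gli2 shRNA array, not well above background, and 21.3 on the control array. Its difference was -0.64 ± 0.43, or 1.56-fold lower. The probe for NM_001131020, a second Gfap transcript, had 18.3 on the Gli2 shRNA array and 9.28 on the control array, where it was not well above background, and so at least 1.18-fold higher. Among all genes measured on the Gli2 shRNA array alone, 31.1% were at least 2-fold higher. In the raw scan the first probe's spot stood 21 above its local background on each array. In the raw scan the second probe's spot stood 25 above background on the Gli2 shRNA array and 8 on the control array. With probes on opposite sides of 0, Gfap has no settled direction.

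The control probes for the E1A spike-in RNA give a measured spread between spots at each brightness, with 32 to 35 spots per spike. Their amounts on each array are not stated in the sources used here. The 7 spikes with a signal of at least 100 on both arrays differed between arrays by at most 0.11 on the scaled log2 scale. The spike E1A_r60_a22, nearest to Ina in mean level, had 766 on the Gli2 shRNA array and 626 on the control array, with an SD between spots of 0.07 on each and a difference of 0.014. The spike E1A_r60_a107 is close in signal to the dim Nefh and Prph spots, at 26.7 on the Gli2 shRNA array and 30.0 on the control array. It differed by -0.45, with an SD between spots of 0.21 on the Gli2 shRNA array and 0.16 on the control array. A dimmer spike, E1A_r60_a104, had 5.30 on the Gli2 shRNA array and 12.6 on the control array and differed by -1.53, where 0% of its spots passed the background flag with Gli2 shRNA and 31.2% in the control. How far such a shift at low signal bears on Nefh and the other dim members was not tested.

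**Figure D3:**
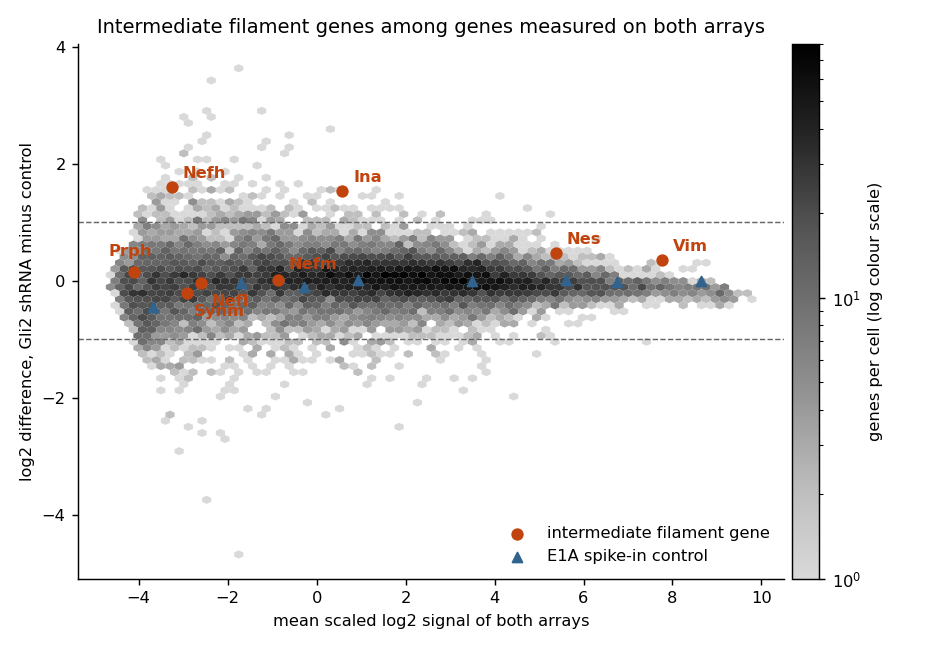
Log2 difference (Gli2 shRNA minus control, vertical axis) against the mean scaled log2 signal of both arrays for the 14563 genes measured on both, as grey cells on a log colour scale, with the 8 members measured on both arrays as circles and the E1A spike-ins well above background as triangles; dashed lines mark 2-fold. The spread of genes narrows from an SD of 0.58 in the dimmest to 0.26 in the brightest of the 4 brightness groups, and Ina and Nefh lie above the 2-fold line.

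A chosen list of other intermediate filament genes held none past 2-fold, with genes measured on 1 array taken at their bounds. Of 19 keratin, lamin, desmin and lens filament genes, 15 were measured on at least 1 array, 10 above 0 and 5 below, with a median of 0.076. Krt7, an epithelial keratin, lay farthest from 0 among those on both arrays at -0.64 ± 0.39, and Krt14, a keratin of basal epithelium, nearest at 0.023 ± 0.39. Both keratins had signals near background, 16.0 on the Gli2 shRNA array and 20.5 on the control array for Krt7. The lamin genes, named here after their values were seen, encode the filaments under the nuclear envelope. Lmnb1 differed by -0.18 ± 0.20 and Lmnb2 by 0.070 ± 0.20, and Lmna by 0.36 ± 0.06 and 0.45 ± 0.20 on its brighter probes but by -0.64 ± 0.26 on its dimmest one.

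Genes whose proteins crosslink, fold or degrade intermediate filaments were also within 2-fold on their brightest probes. Of 23 genes, 20 were measured, 12 above 0 and 8 below, with a median of 0.041. Hspb1, a small heat shock protein that binds filaments, came nearest to 2-fold at 0.92 ± 0.23, with a signal of 102 on the Gli2 shRNA array and 44.4 on the control array. Macf1, a crosslinker of actin and microtubules, lay nearest to 0 at 0.0041 ± 0.20. Dimmer probes of a pair of these genes, named after their values were seen, were past 2-fold. For Dmd, the dystrophin gene, 1 dimmer probe had 120 on the Gli2 shRNA array and 3.10 on the control array, not well above background, at least 7.72-fold higher, while its brightest probe differed by 0.043 ± 0.20. For Dtna, which encodes a dystrobrevin, 1 dimmer probe was at least 2.35-fold lower. The cytolinker gene Plec, named after its value was seen, differed by -0.22 ± 0.20.

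All 19 kinase and transport genes were measured on both arrays and lay within 2-fold, 8 above 0 and 11 below, with a median of -0.071. Cdk5r1, the p35 activator of Cdk5, a kinase that phosphorylates neurofilament tails, lay farthest from 0 at 0.79 ± 0.20, with a signal of 660 on the Gli2 shRNA array and 315 on the control array. Its partner Cdk5 differed by -0.13 ± 0.20. Kif5a, a neuronal kinesin that carries neurofilaments, differed by 0.42 ± 0.06, while its relative Kif5b differed by -0.44 ± 0.20. Gsk3b lay nearest to 0 at -0.0075 ± 0.20. Cdk5, Kif5a and Kif5b were named after their values were seen.

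Of 20 transcription factors known to act on these genes, 19 were measured, 5 above 0 and 14 below, with a median of -0.079. Nr2e1, which encodes the stem cell receptor Tlx, had 15.4 on the Gli2 shRNA array, not well above background, and 27.2 on the control array. It differed by -1.10 ± 0.44, or 2.14-fold lower. The other Nr2e1 probe had 12.4 on the Gli2 shRNA array and 8.94 on the control array, well above background on neither. On the first probe Nr2e1 lay within 2-fold with median scaling (-0.96), cyclic loess (-0.93), quantile normalization (-0.87) and normexp (-0.41). It had no value under the stricter filter. Of the genes that stood above background in the control cells alone, 18.2% were at least 2-fold lower. The factors below were named after their values were seen. Pou3f2, a POU factor that binds the neural enhancer of Nes, differed by -0.71 ± 0.21, and Sox2 by -0.057 ± 0.20. Nfia, which acts on the Gfap promoter, differed by -0.64 ± 0.20, and its relative Nfix by 0.78 ± 0.20. Rest, the repressor of neuronal genes outside neurons, differed by -0.42 ± 0.20.

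Markers of neural cell types were set beside these values, with medians over the genes measured on at least 1 array. Of 10 neuronal markers, 9 were measured, 5 above 0 and 4 below, with a median of 0.049. Eno2, the neuronal enolase, was the marker past 2-fold on its brightest probe, at 1.41 ± 0.21. The summed scaled signal of the list was 60.1 on the Gli2 shRNA array and 74.7 on the control array, most of it from Map2, a dendritic microtubule protein. Without Map2 the sum was 19.6 on the Gli2 shRNA array and 18.0 on the control array. Map2, Tubb3, Elavl3, Dcx, Elavl4 and Stmn2, and Gja1 below, were named after their values were seen. On its brightest probe Map2 differed by -0.49 ± 0.20. Tubb3 differed by 0.74 ± 0.20, and the Elavl3 probes by 0.83 ± 0.21 and 0.82 ± 0.21, all within 2-fold. Dcx, a microtubule protein of young neurons, had probes that disagreed, at -0.93 ± 0.20 on the brighter and 2.75 ± 0.27 on the dimmer. Elavl4, a neuronal RNA-binding protein, differed by -0.12 ± 0.20 on its brightest probe but by -2.07 ± 0.32 on a dim one, with 20.7 on the Gli2 shRNA array and 71.7 on the control array. The dimmest of the Map2 probes was at least 2.14-fold lower. Stmn2, which marks growing axons, was not well above background on either array. Of 8 astrocyte markers, 7 were measured and all 7 lay below 0 on their brightest probes, with a median of -0.47 and a summed scaled signal of 26.3 on the Gli2 shRNA array and 33.6 on the control array. The member Gfap is counted here on its brighter probe, although its other probe lay above 0. Glul, the glutamine synthetase gene, lay farthest from 0 at -0.69 ± 0.20. Aqp4, the astrocyte water channel, lay nearest to 0 at -0.12 ± 0.21 on its brightest probe. That is closer than the shift of 0.14 that median scaling gives, so the direction of all 7 together holds for the scaling reported. Dimmer Aqp4 probes measured on both arrays disagreed, at 0.33 ± 0.40 and -0.96 ± 0.26. Gja1, the astrocyte connexin, was not well above background on either array. The 8 oligodendrocyte lineage markers, 6 of them measured, had a median of -0.38 and a summed scaled signal of 18.6 on the Gli2 shRNA array and 25.8 on the control array. Olig1, a lineage transcription factor, lay farthest from 0 at -0.61 ± 0.20, and Mog, a myelin protein, nearest at 0.17 ± 0.21. The part of any such shift in the values of Ina and Nefh was not tested.

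**Figure D4:**
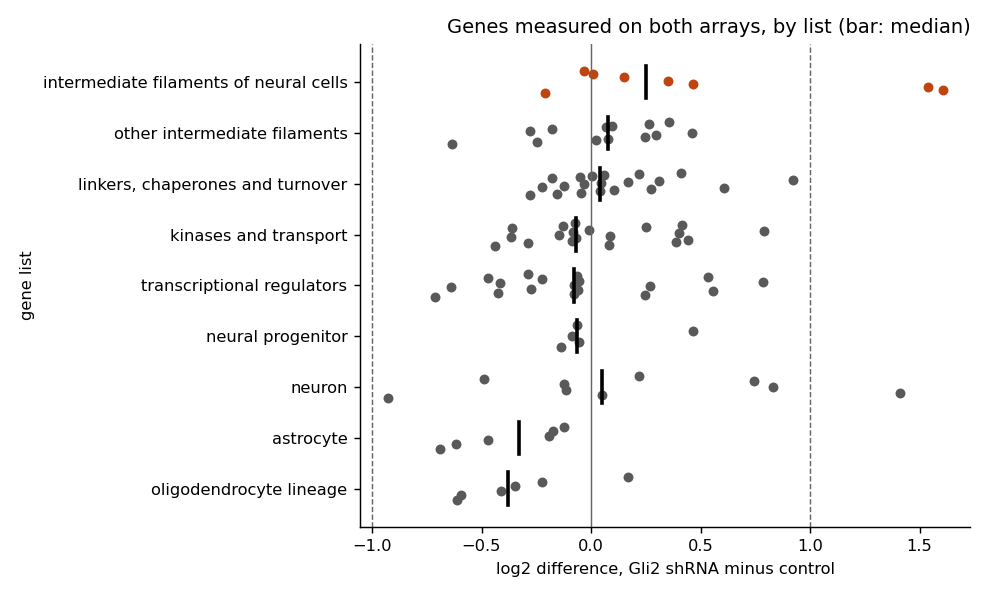
Log2 difference (Gli2 shRNA minus control) of each gene measured on both arrays, 1 point per gene, by list, with a bar at the median of the points shown; dashed lines mark 2-fold. Ina and Nefh lie past the 2-fold line in the top row, all genes of the other filament, linker and kinase lists lie inside it, and the 6 astrocyte markers measured on both arrays lie below 0, the nearest, at -0.12, by less than the 0.14 shift of median scaling.

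Of 20 markers of other cells that a tumour could hold, 11 were well above background on at least 1 array and 9 on neither. Of 8 microglia and macrophage markers, 3 were measured on each array, 2 in the control alone and 3 nowhere, with a summed scaled signal of 15.7 on the Gli2 shRNA array and 16.7 on the control array. Most of that sum came from Itgam, a myeloid integrin, whose signal was 5413 on the Gli2 shRNA array and 4694 on the control array. Its other probe had only 55.3 on the Gli2 shRNA array and 35.2 on the control array. Cd68, a lysosomal macrophage protein, lay nearest to 0 at -0.065 ± 0.20, and Tmem119, a marker of microglia, farthest, at least 1.72-fold lower. Of 5 endothelial markers, 2 were measured, with summed scaled signals of 0.303 on the Gli2 shRNA array and 0.373 on the control array. They were Pecam1, an endothelial adhesion molecule, at -0.039 ± 0.26 and Kdr, a VEGF receptor, at -0.48 ± 0.22. Of 7 fibroblast and mural markers, 4 were measured on at least 1 array. Their summed scaled signals were 20.8 on the Gli2 shRNA array and 23.8 on the control array, nearly all from Acta2, a smooth muscle actin. That share rests on the brightest Acta2 probe, as its other probes were well above background on neither array. The collagen gene Col3a1 lay nearest to 0, at least 1.02-fold higher, and Col1a1 farthest, at least 1.28-fold lower. Itgam, Aif1 and Acta2 were named after their values were seen. No member of these 3 lists was past 2-fold in either direction, with genes measured on 1 array taken at their bounds.

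**Figure D5:**
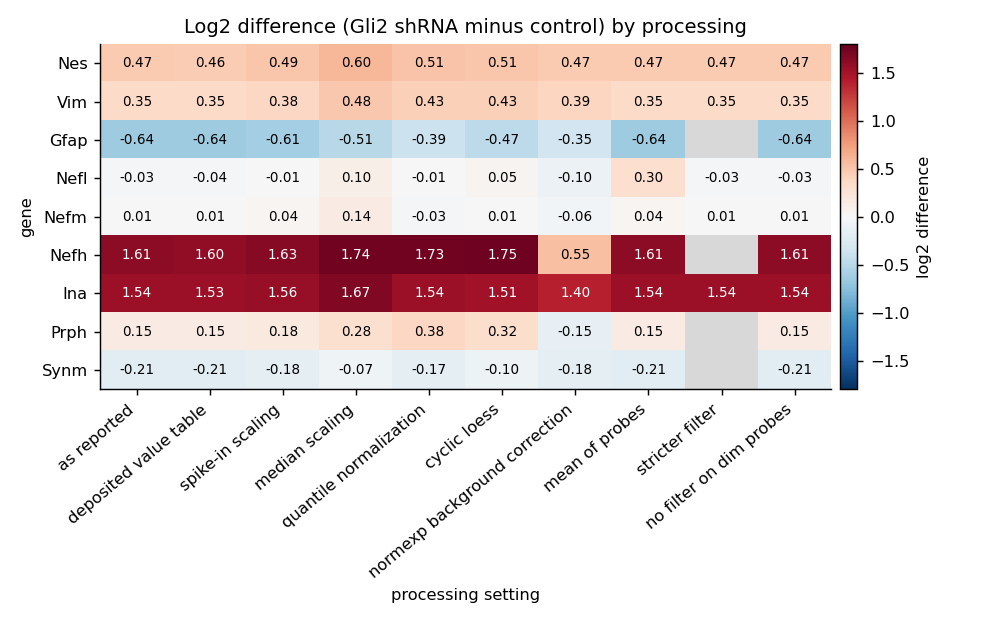
Log2 difference (Gli2 shRNA minus control) of the 9 members measured on at least 1 array, in rows. Columns are the values as reported and under 9 other processing settings. Blue is below 0, red is above 0, and grey marks a setting that gave no value. Gfap, measured on 1 array as reported, is at its measured difference. Ina stays between 1.40 and 1.67 in every column. Nefh is past 2-fold as reported and in 7 of the 8 other settings that give it a value. The exception is 0.55 with normexp. Not all of the settings could change these values.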

How the data were processed

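Per the labels' protocols, total RNA of each culture was amplified, labelled with Cy3 and hybridised to a 1-colour Agilent array. Per the file headers, the authors used Agilent Feature Extraction 12.1.0.3 (protocol GE1_1200_Jun14, design 074809, grid build mm9), and the deposited intensity of each spot is background-subtracted. The deposited value table, per the file headers without a stated scale, is log2: over 56595 probes it equals the scanner log2 intensity minus 1 constant per array (8.64 for Gli2 shRNA, 8.36 for control). Column medians are -3.69 and -3.55, and which spots its centring used stays unknown.

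Here, outlier spots were left out (120 on the Gli2 shRNA array, 126 on the control array), no spot was saturated, spots of a probe were averaged, and each array's 75th percentile (signals of 399 and 329) was subtracted on the log2 scale. The number of arrays limits the precision. Probes were named through accessions of the GRCm38.p6 gene table, and gene coordinates were not used for the naming. The same table gave the chromosomes and the order of neighbouring genes. A gene is represented by its brightest probe. For a probe measured on 1 array, its array of low signal took its own value or, if larger, the smallest signal that passed the background flag there (15.2 for Gli2 shRNA, 12.8 for control). The result is written "at least N-fold" where that smallest signal was taken. Where the probe's own value was taken, the measured difference is given with its error. Named genes are Gli2, the members, and in each list those past 2-fold (at most 4 a direction) or, with none, those nearest to and farthest from 0. Genes measured on 1 array were ranked at their bounds, which are least sizes. Further genes are marked as named after their values were seen. Members and lists were chosen with earlier results of these data known. Alternatives used limma 3.58.1 in R 4.3.3. normexp took median spot signals, since mean signals were not used here. Functions were tested on simulated data with Python 3.11.15.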

Additional observations from a re-analysis of the deposited data

How the results depend on the processing

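8 other ways of processing, and 1 chosen after seeing the data (scaling on the E1A spike-ins), were run. The count of members past 2-fold was 2, both higher, under 7 of them; it was 1 after normexp, where Nefh came to 0.55, and 1 under the filter for signals of at least 50, which gives Nefh no value because its control signal is below it. Ina was past 2-fold under all 9 (1.40 to 1.67), but not all of these could have changed it. Ina has 1 bright probe, so the mean of probes and the filters return its reported value. The deposited values and the median and spike-in scalings shift the difference of every gene by the same amount. The remaining settings gave Ina 1.40 with normexp, 1.54 with quantile normalization and 1.51 with cyclic loess. Nefh has 1 probe measured on both arrays, so the mean of probes and the unfiltered set return its reported value too. The same remaining settings gave Nefh 0.55 with normexp, 1.73 with quantile normalization and 1.75 with cyclic loess. Gli2 ranged from -1.04 to -0.64 and was past 2-fold under 6. Nefl lay above 0 under 3 alternatives and below under 6, with 0.30 for the mean of its probes. Over all named genes on both arrays, the count past 2-fold was 528 as reported, 167 with normexp, 297 with the stricter filter and 2844 without the filter, with 40.1% of the normexp calls and 27.0% of the unfiltered ones higher. Among linkers, median scaling put 1 gene past 2-fold. Without the filter 1 other filament gene passed it. The single transcription factor past 2-fold, Nr2e1, gave a count of 0 with median scaling, quantile normalization, cyclic loess, normexp and the stricter filter. By construction the stricter filter removes genes, the unfiltered set adds them, and median scaling moves every gene by the same amount. The cause of the other changes was not tested. No paired analysis was possible because each group has 1 array. At low signals the spots limit what can be told, as 3 of the 17 member probes were well above background on neither array.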

Other observations

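The genes on either side of each member on its chromosome were looked at, by their order in the GRCm38.p6 gene table. Of the 18 neighbouring protein-coding genes that are not members, 13 were measured on both arrays, and none of these was past 2-fold (-0.29 to 0.40). Ina lies between Nt5c2, a nucleotidase gene, which differed by 0.20 ± 0.20, and Pcgf6, a polycomb gene, which differed by -0.22 ± 0.20. Nefh lies between Thoc5, an RNA export factor gene, at -0.0067 ± 0.20 and Ap1b1, an adaptor complex gene, at 0.0056 ± 0.20, so the genes beside both higher members lay within 0.22 of 0.

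Bcan, which encodes the brain proteoglycan brevican and follows Nes on chromosome 3, differed by 0.40 ± 0.20, beside 0.47 for Nes, but its other probe differed by 0.094 ± 0.20. The signal of the first probe was 29738 on the Gli2 shRNA array and 18607 on the control array. Dock5, a Rac exchange factor gene next to Nefl, had 549 on the Gli2 shRNA array and 8.06 on the control array on its brighter probe, at least 35.4-fold higher, while its other probe differed by 0.51 ± 0.25. Nefl and Nefm themselves, beside it, differed by -0.034 and 0.0084 on their brighter probes. The neighbours were chosen by position, but Bcan and Dock5 are described because their values lay farthest from 0 on the higher side.

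Within genes, probes can go opposite ways. Of 5415 genes with several probes measured on both arrays, 1650 had probes on opposite sides of 0. Among the members Nefl is such a gene, while both Nefm probes lay close to 0.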
